A study of Mus musculus with 32 samples.

Results

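The response of 2 fat depots to loss of Bcl6 in adipocytes was set side by side in the 8 male mice that gave both inguinal and perigonadal adipose tissue. Members were the genes in the authors' deposited tables for these depots, which list only genes with an adjusted p under 0.05, matched by symbol. The inguinal table listed 1074 genes, and 1488 genes were listed for perigonadal fat. Together they held 2063 genes, of 2508 in the 4 deposited tables of the series, and these fell into 499 genes listed in both, 575 listed for inguinal fat only and 989 listed for perigonadal fat only. Poly(A) RNA was sequenced, 1 library per depot and mouse, and the 16 libraries were 16 of the 32 samples in the series.

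Animals 3780, 3799, 3800 and 3803 were adipocyte knockouts (AKO), with genotype Bcl6 fl/fl;Adipoq-Cre. Animals 3782, 3801, 3802 and 3804 were the controls (WT), with genotype Bcl6 fl/fl and no Cre. All were males on a C57BL/6 background, and their ages were not given in the labels. Both genotypes carried the floxed alleles, and no group carried Cre alone, so an effect of the Adipoq-Cre transgene cannot be told apart from that of the deletion.

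Bcl6 is a zinc-finger repressor of transcription whose DNA element resembles the palindrome bound by STAT factors, among them STAT5, which acts downstream of growth hormone and prolactin. The Adipoq promoter drives Cre in mature adipocytes of every depot, so other cells of the tissue keep the gene. Inguinal fat is a subcutaneous depot that readily acquires brown-like, thermogenic adipocytes, whereas perigonadal fat of males is a visceral depot beside the epididymis, covered by mesothelium.

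For inguinal fat, counts per library were analysed for the 1074 listed genes, and values per library are given as counts divided by the authors' size factors (normalized counts). The counts in these genes ran from 592820 in WT replicate 1 to 2603509 in AKO replicate 2, and size factors ran from 0.373 to 1.74. Whole-library depth is unknown. For perigonadal fat, only the authors' table was analysed here, so its values are log2 folds of AKO over WT with standard errors (SE). The direction of these folds was assumed from the column name, which is the same as in the inguinal table, where the sign matched the counts in all 1074 genes. Neither Bcl6 nor Adipoq was listed in either depot table of males, so the targeted gene could not be checked in these mice. In the authors' deposited table for female inguinal fat Bcl6 was listed as higher in AKO (log2 fold 1.09 ± 0.13 SE), and a count over the whole gene does not separate deleted from retained exons, so it checks nothing. Since unlisted genes were not held, the depot labels could not be checked against defining markers either. In whole tissue, fewer cells of a type and less RNA per cell cannot be told apart.

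The inguinal table listed 8.56% of the 12554 genes the authors tested there, 4.54% as higher and 4.01% as lower in AKO. The perigonadal table listed 11.1% of 13361 genes, 5.68% as higher and 5.46% as lower. The 499 shared genes made up 46.5% of the inguinal list and 33.5% of the perigonadal list. Of the 499, 253 were higher in AKO in both depots, 245 were lower in both, and 1, Lrrn4, was higher in AKO in inguinal fat and lower in AKO in perigonadal fat. Because the depots came from the same mice, this shared direction is not that of independent animals.

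Several of the largest changes were shared. By the rule of the largest smaller fold, the leading shared genes were Mfsd7c, a transporter of the major facilitator superfamily, Rgs16, an inhibitor of G protein signalling, Nt5e, the ecto-5'-nucleotidase that makes adenosine, Acot3, Spon1 and Srgap3. Mfsd7c stood at 448, 448, 419 and 434 normalized counts in AKO inguinal fat, against 26.8, 28.4, 25.9 and 18.8 in WT inguinal fat. Rgs16 stood at 290, 414, 453 and 505 normalized counts in AKO inguinal fat, against 37.6, 45.8, 29.3 and 52.0 in WT inguinal fat. In both genes every AKO library was several-fold above every WT library. The authors' deposited log2 folds of Mfsd7c were 3.86 ± 0.15 (SE) in inguinal fat and 3.06 ± 0.18 in perigonadal fat. Those of Rgs16 in the deposited tables were 2.88 ± 0.21 in inguinal fat and 3.16 ± 0.20 in perigonadal fat, and those of Nt5e were 2.72 ± 0.14 and 3.00 ± 0.16.

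**Figure D1:**
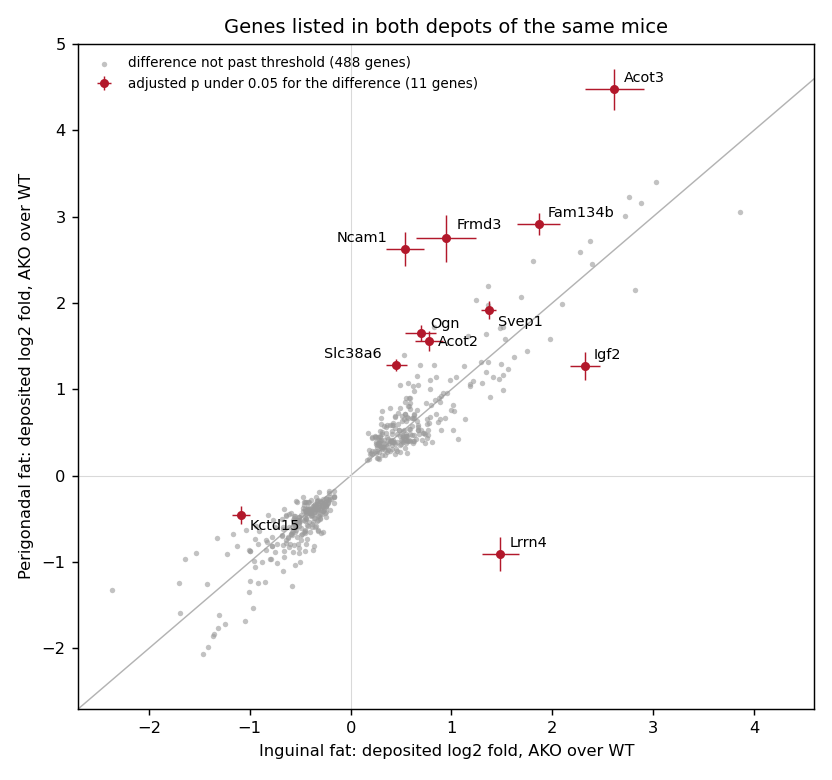
Deposited log2 folds (AKO over WT) of the 499 genes listed in both depots, inguinal fat on the x axis and perigonadal fat on the y axis, with the line of equal folds. The 11 genes whose difference passed the threshold are red with bars of 1 SE, and Lrrn4 is the 1 gene in a quadrant of opposite signs.

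Each shared gene was asked whether its AKO effect differed in size between depots, by a Wald test on the difference of the 2 deposited log2 folds (inguinal minus perigonadal), with Benjamini-Hochberg adjustment over 12554 genes. Only the 499 shared genes were compared, so this adjustment is stricter than one over those 499, and fewer genes could pass. Genes listed for 1 depot had no fold in the other and could not be compared. A call in both depots also favours like changes. The share that differed therefore holds for genes called in both and does not measure how far the depots differ. The difference passed an adjusted p of 0.05 in 11 of 499 genes, 2.2%, and an unadjusted p under 0.05 was reached by 61. Of the differences, 9 were negative and 2 were positive. In 8 genes both depots moved the same way with the larger change in perigonadal fat, in Igf2 and Kctd15 the larger change was in inguinal fat, and Lrrn4 had opposite signs. The median absolute difference over the 499 genes was 0.13 on the log2 scale, against a median SE of the difference of 0.16, and the smallest difference past the threshold was 0.55. For 457 of the 499 genes the 95% interval of the difference lay within 1 on the log2 scale in either direction, and for 298 within 0.5, so for the remainder this test could not place the difference that closely. The test treats the depots as independent, and since replicates are single mice its p-values measure only the spread between these mice.

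Lrrn4 encodes a leucine-rich repeat membrane protein and was among the mesothelial markers. It lies on mm10 chromosome 2 from 132868305 to 132880891 on the minus strand. Lrrn4 stood at 139, 100.4, 111 and 108 normalized counts in AKO inguinal fat, against 24.2, 39.3, 40.5 and 36.5 in WT inguinal fat, a mean of 114.5 ± 16.95 against 35.1 ± 7.49 (SD, n = 4 each). The groups did not overlap. The authors' deposited log2 folds of Lrrn4 were 1.48 ± 0.19 (SE) in inguinal fat and -0.91 ± 0.20 in perigonadal fat. The difference was 2.39 ± 0.27 (Wald test, adjusted p = 1.32e-14). In females, whose inguinal fat came from other mice, the deposited log2 fold of Lrrn4 was 0.92. Lrrn4 thus had a higher level in AKO in inguinal fat of both sexes and a lower one in male perigonadal fat, where its deposited mean over all libraries was 6.21 times that in the inguinal table. The tables were normalized separately, and the same ratio had a median of 2.01 over the 499 shared genes.

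No other mesothelial marker was listed beside Lrrn4 in male inguinal fat. Of the list of 20 mesothelial and progenitor markers, Lrrn4 alone was listed for inguinal fat (5%, beside 8.56% of all genes tested). For perigonadal fat 5 were listed (25%, beside 11.1% of all genes tested), all lower in AKO. Besides Lrrn4 these were the keratins Krt19 and Krt7, with deposited log2 folds of -1.05 and -1.09, the complement regulator Cd55 (-0.42) and the peptidase Dpp4 (-0.46). Krt7 was also listed as lower in AKO in female inguinal fat (-1.09), where Krt19, Cd55 and Dpp4 were not listed. Krt7 also stood among epithelial markers, of which Krt79 and Eppk1 were listed as lower in AKO in both depots, with deposited log2 folds of -1.05 and -1.68 for Krt79 and -1.37 and -1.85 for Eppk1 (inguinal and perigonadal). The part of mesothelium in the perigonadal Lrrn4 value was not tested.

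Ncam1, the neural cell adhesion molecule (chromosome 9, 49502136 to 49798925, minus strand), showed the largest difference among genes that moved the same way. It stood at 69.9, 82.6, 90.8 and 60.8 normalized counts in AKO inguinal fat, against 56.4, 44.7, 56.9 and 43.2 in WT inguinal fat. The lowest AKO library was just above the highest WT library. The deposited log2 folds of Ncam1 were 0.54 ± 0.19 (SE) in inguinal fat and 2.62 ± 0.20 in perigonadal fat, folds of 1.45 and 6.16. The difference was -2.08 ± 0.27 (Wald test, adjusted p = 6.67e-11).

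Slc38a6, of the amino acid transporter family SLC38 (chromosome 12, 73286779 to 73354049, plus strand), and Ogn, which encodes the matrix proteoglycan osteoglycin (chromosome 13, 49608046 to 49624501, plus strand), also changed more in perigonadal fat. Slc38a6 stood at 526, 589, 516 and 505 normalized counts in AKO inguinal fat, against 352, 437, 406 and 342 in WT inguinal fat. Its deposited log2 folds were 0.45 ± 0.10 (SE) and 1.28 ± 0.07 in inguinal and perigonadal fat, and the difference was -0.83 ± 0.13 (Wald test, adjusted p = 2.6e-07). Ogn stood at 5338, 5215, 4476 and 3785 normalized counts in AKO inguinal fat, against 2797, 2925, 3355 and 2170 in WT inguinal fat. The groups were apart in both genes, more narrowly in Ogn. Ogn had deposited log2 folds of 0.70 ± 0.15 and 1.65 ± 0.10 in inguinal and perigonadal fat, and the difference was -0.96 ± 0.18 (Wald test, adjusted p = 0.000315). The gene overlaps Cenpp on the opposite strand, and the strand setting of the counting is not given in the sources used here.

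Igf2 was the 1 gene of the 11 that rose in both depots and rose more in inguinal fat. It encodes insulin-like growth factor 2, is expressed from the paternal allele and lies on chromosome 7 from 142650766 to 142666816 on the minus strand. Igf2 stood at 1563, 1476, 1509.5 and 1456 normalized counts in AKO inguinal fat, against 279, 192, 345 and 262 in WT inguinal fat. The AKO libraries lay close together at about the same level, far above the WT libraries. The deposited log2 folds of Igf2 were 2.33 ± 0.15 (SE) in inguinal fat and 1.27 ± 0.16 in perigonadal fat, folds of 5.01 and 2.41, and the difference was 1.06 ± 0.22 (Wald test, adjusted p = 0.00279). Igf2 was not listed for female inguinal fat, which is not a test of a difference. Its locus overlaps Gm49394 and Mir483 on the same strand and Igf2os on the opposite strand, and reads of these may be shared.

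Kctd15, a BTB-domain protein (chromosome 7, 34639014 to 34656732, minus strand), was the member that fell further in inguinal fat. It stood at 193, 195, 180.3 and 187 normalized counts in AKO inguinal fat, against 427, 417, 430.1 and 371 in WT inguinal fat. Its deposited log2 folds were -1.09 ± 0.09 (SE) and -0.46 ± 0.10 in inguinal and perigonadal fat, and the difference was -0.63 ± 0.13 (Wald test, adjusted p = 0.00488). The deposited female inguinal log2 fold was -0.63, between those of the male depots. The call was kept under 13 of 14 alternatives.

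The other 5 genes rose in both depots with larger deposited folds in perigonadal fat, and their calls held under fewer of the alternatives: 8 of 14 for Svep1, 7 of 14 for Acot2, 3 of 14 for Fam134b, 2 of 13 for Frmd3 and 3 of 13 for Acot3, which changed sign under 7. Svep1, a large secreted matrix protein, had deposited log2 folds of 1.37 and 1.92 in inguinal and perigonadal fat, with a difference of -0.55 ± 0.13 (SE). Acot2, a mitochondrial acyl-CoA thioesterase, had deposited log2 folds of 0.77 and 1.56, with a difference of -0.79 ± 0.18. Fam134b, a receptor for autophagy of the endoplasmic reticulum, had deposited log2 folds of 1.86 and 2.92, with a difference of -1.05 ± 0.25. Fam134b stood at 624, 456, 450.1 and 406 normalized counts in AKO inguinal fat, against 118, 131, 62.1 and 126 in WT inguinal fat. In Acot2 and Svep1, too, the lowest AKO library was above the highest WT library in inguinal fat, at 394 against 292 normalized counts for Acot2 and 4554 against 2067 for Svep1. Frmd3, a FERM-domain protein that completes the 11 and was named after its values were seen, had deposited log2 folds of 0.95 and 2.75, with a difference of -1.80 ± 0.41. Acot3, a peroxisomal acyl-CoA thioesterase, had deposited log2 folds of 2.62 and 4.47, with a difference of -1.86 ± 0.38. Acot3 was scarce in inguinal fat, at 34.6, 32.1, 31.6 and 40.8 normalized counts in AKO and 8.05, 0, 0 and 1.11 in WT, so its inguinal fold depends on how low counts are handled. With the inguinal fold of the edgeR fit the difference of Acot3 changed sign to 0.25. That fold lacks the shrinkage of the deposited perigonadal fold, and with shrinkage undone in both depots the difference was -1.79. Acot2, Acot4 and Acot3 are neighbouring paralogs on chromosome 12 and may share reads.

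**Figure D2:**
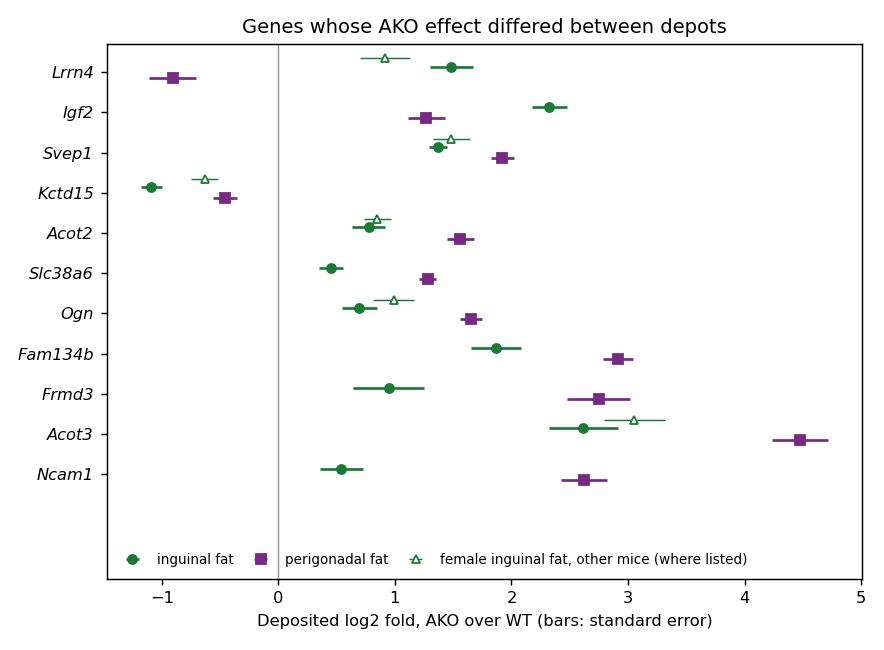
Deposited log2 folds (AKO over WT, x axis, bars of 1 SE) of the 11 genes whose effect differed between depots, with inguinal fat as green circles, perigonadal fat as purple squares and female inguinal fat of other mice as open triangles where listed. Genes run from the most positive difference at the top (Lrrn4, 2.39) to the most negative (Ncam1, -2.08).

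**Figure D3:**
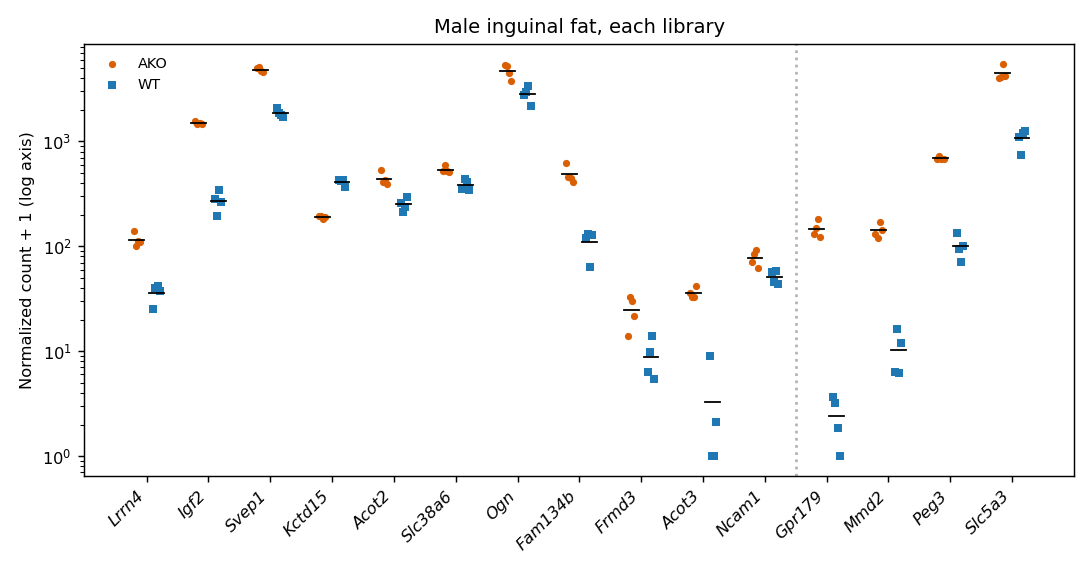
Normalized count plus 1 (y axis, log scale) in each inguinal library for the 11 genes that differed between depots and, right of the dotted line, 4 large rises listed for inguinal fat only. AKO libraries are orange circles left of WT libraries (blue squares), with a line at each group's mean. The AKO and WT libraries of Lrrn4, Igf2 and Kctd15 do not overlap, with Kctd15 lower in AKO.

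Genes listed for 1 depot had smaller changes than the shared genes. The classes were formed from the same deposited adjusted p-values, and a shared gene had to pass in both depots. This contrast is therefore largely set by the rule and describes the classes only. The median absolute deposited log2 fold was 0.36 for the inguinal-only genes and 0.45 for the perigonadal-only genes, against 0.51 and 0.52 for the shared genes in the inguinal and perigonadal tables. An adjusted p under 0.01 was reached by 51.0% of the inguinal-only genes and by 52.3% of the perigonadal-only genes, against 75.8% and 77.2% of the shared genes in these tables. A gene missing from a table may have been just past the threshold, so listing in 1 depot is not a test of a difference. If such a gene was tested with an SE no larger than the largest listed, its absolute log2 fold was under 0.81 in perigonadal fat, or under 0.90 in inguinal fat. In their own depot, 60 of the 575 inguinal-only genes (10.4%) and 95 of the 989 perigonadal-only genes (9.61%) had a deposited fold beyond that bound. The SEs of unlisted genes were not held, and a gene with a larger SE could have gone unlisted at a larger fold. The bound also leaves out the error of the listed fold, so it is no test of a difference.

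The inguinal-only genes comprised 316 that were higher and 259 that were lower in AKO. Where the mean was 50 normalized counts or more and the groups did not overlap, the largest rises were Gpr179, an orphan G protein-coupled receptor known from the retina, Mmd2, a membrane protein of the progestin and adipoQ receptor family, Peg3, Slc5a3, Folh1 and Map1a. Gpr179 stood at 129, 147, 182 and 122 normalized counts in AKO inguinal fat, against 2.68, 2.18, 0.862 and 0 in WT inguinal fat. The gene was all but absent from WT libraries, and its deposited log2 fold was 4.22 ± 0.27 (SE). Mmd2 stood at 131, 119, 170 and 143 normalized counts in AKO inguinal fat, against 5.37, 15.3, 5.17 and 11.1 in WT inguinal fat, with a deposited log2 fold of 3.14 ± 0.23. Slc5a3, the sodium and myo-inositol cotransporter, had a deposited log2 fold of 1.89 ± 0.17, but it lies within Mrps6 on the same strand of chromosome 16 and Mrps6 was itself listed at 1.17, so their reads cannot be told apart. Gpr179 was also listed for female inguinal fat, with a deposited log2 fold of 2.82.

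Peg3 and Zim1, imprinted zinc-finger genes that neighbour each other on chromosome 7 (6703892 to 6730431 and 6671269 to 6696450, both on the minus strand), rose in inguinal fat and were not listed for perigonadal fat. Peg3 stood at 686, 728, 676 and 686 normalized counts in AKO inguinal fat, against 132, 93.8, 69.8 and 99.6 in WT inguinal fat, with a deposited log2 fold of 2.74 ± 0.14 (SE). Zim1 stood at 79.7, 76.9, 69.8 and 60.8 normalized counts in AKO inguinal fat, against 0, 5.46, 4.31 and 8.85 in WT inguinal fat, with a deposited log2 fold of 2.84 ± 0.26. In both genes the AKO libraries were tightly grouped and far from the WT libraries. For female inguinal fat Peg3 was not listed, and Zim1 was listed with a deposited log2 fold of 0.89. Of the 26 imprinted genes in the list, 7 were listed for inguinal fat (26.9%, all higher in AKO) and 6 for perigonadal fat (23.1%, 5 higher and 1 lower). These stand beside 8.56% and 11.1% of all genes tested. The shared ones numbered 4. Beside Igf2 these were Grb10, an adaptor that inhibits insulin receptor signalling (deposited log2 folds 0.52 and 0.46), Ndn (0.80 and 0.82) and Peg10 (1.25 and 2.04 in inguinal and perigonadal fat). Plagl1, a zinc-finger gene, was listed for inguinal fat only (0.65), and the noncoding Rian (-0.46) and Magel2 (1.09) for perigonadal fat only, by the deposited log2 folds. The imprinted genes divided into a shared set and sets listed for 1 depot.

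Under the same conditions, the 6 largest inguinal-only falls had deposited log2 folds from -1.23 to -0.87, against 1.19 to 4.22 for the 6 rises. They included Ncan, which encodes the proteoglycan neurocan, Acta1, the skeletal muscle actin, Cspg4, the pericyte proteoglycan NG2, and Dbp, a transcription factor of the circadian output. Dbp stood at 1372, 1432, 1312 and 1498 normalized counts in AKO inguinal fat, against 2915, 2326, 3383 and 2048 in WT inguinal fat, with a deposited log2 fold of -0.87 ± 0.15 (SE). Acta1 stood at 55.5, 29.8, 32.9 and 22.2 normalized counts in AKO inguinal fat, against 102, 64.4, 73.3 and 97.4 in WT inguinal fat. Both sets of libraries were apart. Acta1 was the 1 gene listed among 17 skeletal muscle markers, in either depot (5.88% in inguinal fat, beside 8.56% of all genes tested). Of 18 clock genes, Nr1d2 (-0.25) and Dbp were listed for inguinal fat only and Cry1 (0.49) and Bhlhe41 (-0.97) for perigonadal fat only, as deposited log2 folds. These 2 of 18 in each depot (11.1%) are near the share of all genes tested.

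The perigonadal-only genes comprised 506 that were higher and 483 that were lower in AKO. Where the mean was 50 normalized counts or more, the rises were led by Vdr, the vitamin D receptor, Gcgr, the glucagon receptor, Lypd1, Prlr, the prolactin receptor, Dnase1l3 and Atp6v0d2. By the authors' deposited table the log2 fold was 3.19 ± 0.23 (SE) for Vdr, 2.44 ± 0.18 for Gcgr and 1.96 ± 0.13 for Prlr. All of these lay beyond 0.90, the most that an unlisted inguinal gene could have held under the stated condition. That condition could not be checked for these genes, and the difference between depots was not tested. Of these 6, Gcgr, Lypd1 and Atp6v0d2 were listed as higher in AKO in female inguinal fat too, with deposited log2 folds of 2.33, 0.91 and 0.79. With the same minimum, the falls were led by Nrg4, a secreted factor of brown and beige adipocytes, Cox8b, a subunit of cytochrome oxidase enriched in brown fat, Pck1, the glyceroneogenic enzyme phosphoenolpyruvate carboxykinase, Ntsr2, Reep6 and Adamtsl2. The deposited log2 fold was -1.74 ± 0.18 for Nrg4, -1.62 ± 0.24 for Cox8b and -1.53 ± 0.16 for Pck1.

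A promoter window of Prlr holds letters that match the STAT palindrome, and it is shown with a window of 1 gene from each other class, since the genes differ in which depot listed them. The sequences below are from RefSeq promoter windows on GRCm38.p6, from 250 bases before to 50 after each start, and the capitals mark a match to TTCNNNGAA, searched on both strands. The windows are Prlr (perigonadal only) at chr15:10223771-10223829 on the plus strand, Fam134b (listed in both, larger in perigonadal fat) at chr15:25942567-25942625 on the plus strand and Dbp (inguinal only) at chr7:45705123-45705181 on the plus strand.
Prlr: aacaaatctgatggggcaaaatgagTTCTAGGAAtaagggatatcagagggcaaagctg
Fam134b: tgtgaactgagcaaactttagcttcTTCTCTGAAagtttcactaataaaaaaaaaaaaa
Dbp: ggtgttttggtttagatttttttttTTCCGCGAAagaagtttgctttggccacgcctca

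The match in Prlr, read on the other strand, also fits the narrower TTCCTNGAA, all of whose matches are matches to TTCNNNGAA as well. Of the 3 windows of Prlr, 1 held a match, as did 1 of the 4 windows of Fam134b. TTCCTNGAA was also held by a window of Lipe and of Pccb, and TTCNNNGAA by a window of Ntsr2, Akt2 and Itih4. These other genes were listed as lower in AKO, so the letters do not go with a rise alone. TTCNNNGAA was held by 8.30% of all 32851 windows and TTCCTNGAA by 1.59%. These letters were not in the windows of Lrrn4, Ogn, Slc38a6, Igf2, Kctd15, Svep1, Acot2 or Acot3. A comparison of the 3 classes was void, because fewer than 80% of their genes had a window (437 of 575 inguinal-only, 390 of 499 shared and 769 of 989 perigonadal-only genes).

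Of the 16 genes in the growth hormone and STAT5 list, 3 were listed for each depot (18.8%), all higher in AKO. Among all genes tested, 8.56% were listed in inguinal and 11.1% in perigonadal fat. Socs2, a feedback inhibitor of growth hormone signalling, stood at 865, 691, 495 and 572 normalized counts in AKO inguinal fat, against 215, 277, 183 and 246 in WT inguinal fat. The groups did not overlap. Its deposited log2 folds were 1.36 ± 0.19 (SE) in inguinal fat and 1.98 ± 0.15 in perigonadal fat, and the difference of -0.62 ± 0.24 did not pass the threshold (95% interval -1.08 to -0.15, Wald test, adjusted p = 1). Igf2 was the other shared gene, Prlr was listed for perigonadal fat only, and Igfbp4, which binds insulin-like growth factors, for inguinal fat only with a deposited log2 fold of 0.33.

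Triglyceride storage genes were listed mostly as lower in AKO, and the difference in their number between depots was not tested. Of 35, 5 were listed for inguinal fat (14.3%, 1 higher and 4 lower in AKO, beside 8.56% of all genes tested) and 11 for perigonadal fat (31.4%, all lower, beside 11.1% of all genes tested and 5.46% lower). Of these, 3 were shared and lower in both depots, and 8 were listed as lower for perigonadal fat only. The 8 were the lipid droplet proteins Plin2, Plin4, Plin5, Cidea and Cidec, the acyltransferases Dgat2 and Mogat1, and Pck1. In the authors' deposited table their log2 folds ran from -1.60 for Cidea to -0.23 for Plin2, with -1.07 for Plin5 and -0.63 for Dgat2. In inguinal fat the droplet protein listed was Plin1, with a deposited log2 fold of -0.36, and the fatty acid-binding protein gene Fabp5 was listed as higher (0.63). Vldlr, the very low density lipoprotein receptor, was shared, at 1031, 940.4, 916 and 860 normalized counts in AKO inguinal fat, against 1734, 1269, 1261 and 1454 in WT inguinal fat. Its deposited log2 folds were -0.58 ± 0.12 (SE) and -1.27 ± 0.15 in inguinal and perigonadal fat. The difference of 0.69 ± 0.19 had a 95% interval of 0.32 to 1.07 and did not pass the threshold set over 12554 genes (Wald test, adjusted p = 0.241).

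Of 15 lipolysis genes, 4 were listed for each depot (26.7%, beside 8.56% of all genes tested in inguinal and 11.1% in perigonadal fat), and 1 was shared. Pnpla2, the adipose triglyceride lipase, was lower in AKO in both, with deposited log2 folds of -0.58 and -0.68 in inguinal and perigonadal fat. The lipases Lipe (-0.37) and Mgll (-0.33) and the receptor Adrb3 (-0.70) were listed as lower for perigonadal fat only, by the deposited log2 folds. For inguinal fat only, the deposited table listed the receptors Adrb1 (-0.64) and Adora1 (-0.71) as lower and the inhibitory G protein subunit Gnai1 (0.52) as higher. The 2 depots of males thus had different adrenergic receptor genes among their listed genes, and the difference between depots was not tested for any of these. In female inguinal fat, Adrb3 (-0.46) and Adora1 (-0.71) were also listed as lower and Gnai1 (0.49) as higher, by the deposited log2 folds. Adrb1 was not listed there.

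The share of all genes tested that was listed, 8.56% in inguinal fat and 11.1% in perigonadal fat, also stands beside the synthesis genes. Of 23 fatty acid synthesis genes, 5 were listed for inguinal fat (21.7%, 4 higher and 1 lower) and 5 for perigonadal fat (21.7%, 2 higher and 3 lower). The desaturase Fads1 rose in both, with deposited log2 folds of 1.49 ± 0.11 (SE) and 1.29 ± 0.10 in inguinal and perigonadal fat, and the regulator Srebf1 fell in both (-0.83 and -0.77). Fads2 (0.87), Elovl5 (0.24) and G6pdx (0.35) were listed as higher for inguinal fat only, whereas Acacb (-1.04) and Aacs (-1.04) were listed as lower for perigonadal fat only, by the deposited log2 folds. Of 22 cholesterol synthesis genes, Mvd (0.51), Dhcr7 (0.41) and Sc5d (0.49) were listed as higher for inguinal fat (13.6%) and none for perigonadal fat, as deposited log2 folds. Mvd stood at 148, 129, 155 and 129.5 normalized counts in AKO inguinal fat, against 91.3, 89.5, 116 and 81.9 in WT inguinal fat, with no overlap.

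Oxidation genes were mostly common to the depots. Of 38 genes of fatty acid oxidation and thermogenesis, 15 were listed for inguinal fat (39.5%, 3 higher and 12 lower in AKO, beside 8.56% of all genes tested). For perigonadal fat 21 were listed (55.3%, 4 higher and 17 lower, beside 11.1% of all genes tested), and 14 were shared. Etfa, an electron transfer flavoprotein subunit, stood at 4588, 4069, 4188 and 4587 normalized counts in AKO inguinal fat, against 6886, 6179, 5794 and 6863 in WT inguinal fat. Its deposited log2 folds were -0.55 and -0.66 in inguinal and perigonadal fat. The dehydrogenase gene Acadl had deposited log2 folds of -0.67 and -0.62, with a difference of -0.05 ± 0.19 (SE, 95% interval -0.43 to 0.33). Listed as lower for perigonadal fat only were Cox8b, Cidea, Hadha (-0.44), Ehhadh (-0.59) and Etfdh (-0.29), among others, while the coactivator Ppargc1a was listed as higher there only (0.47), as deposited log2 folds. The potassium channel Kcnk3 was the 1 gene of this list found for inguinal fat only, at -0.59 in the deposited table. The 3 genes that were higher in both depots were the thioesterases Acot2, Acot3 and Acot4.

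Genes of the tricarboxylic acid cycle and branched-chain amino acid catabolism gave nearly the same picture in both depots. Of 34, 7 were listed for inguinal fat (20.6%) and 6 for perigonadal fat (17.6%), all lower in AKO, and 6 were shared. The shares of all genes tested were 8.56% and 11.1%. Bcat2, the mitochondrial branched-chain aminotransferase, had deposited log2 folds of -0.57 and -0.64 in inguinal and perigonadal fat, and Mccc1, of leucine breakdown, had -0.51 and -0.52. The medians of the 6 shared genes were -0.49 and -0.46. Of 76 respiratory chain genes, Atp5g1 alone was listed, in both depots and as higher in AKO (1.32% of the list each), with deposited log2 folds of 1.47 and 1.12.

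**Figure D4:**
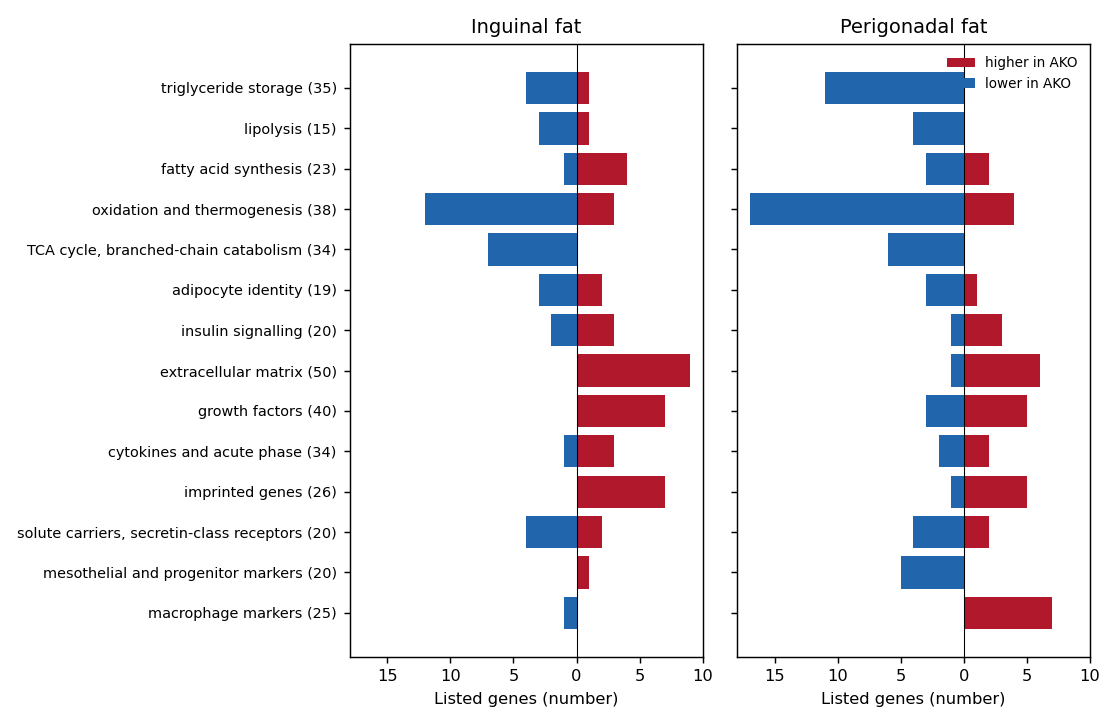
Number of listed genes higher (red, to the right) and lower (blue, to the left) in AKO in each gene list, inguinal fat in the left panel and perigonadal fat in the right, with the size of each list in parentheses. Triglyceride storage had 4 lower genes in inguinal fat and 11 in perigonadal fat, and macrophage markers had 7 higher genes in perigonadal fat and none in inguinal fat.

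Matrix genes were listed mostly as higher in AKO in both depots, and the perigonadal share was near that of all genes tested (11.1%, and 8.56% in inguinal fat). Of 50 matrix genes, 9 were listed for inguinal fat (18.0%, all higher in AKO) and 7 for perigonadal fat (14%, 6 higher and 1 lower). Shared were Spon1, which encodes spondin 1 (deposited log2 folds 2.40 and 2.45), Col6a1 (0.63 and 0.67) and the basement membrane gene Nid1 (0.63 and 0.40). The collagen IV genes Col4a1 (0.39) and Col4a2 (0.50) were listed for inguinal fat only, and the collagen I genes Col1a1 (0.37) and Col1a2 (0.22) for perigonadal fat only, by the deposited log2 folds. The single lower gene was Timp4, a metalloproteinase inhibitor, at -0.67 in the deposited perigonadal table.

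Macrophage markers were listed in perigonadal fat. Of 25, 7 were higher in AKO there (28.0%, beside 5.68% of all genes tested), and the deposited log2 folds included 0.38 for Mrc1, 0.45 for Csf1r, 0.55 for Emr1, 0.56 for Ctss, 0.58 for Cd68 and 1.32 for Atp6v0d2. In inguinal fat 1 of 25 was listed (4.00%, beside 8.56% of all genes tested), Cd14, with a deposited log2 fold of -0.38. None was shared, and the difference between depots was not tested. The pan-leukocyte gene Ptprc was the 1 listed of 21 lymphocyte markers (4.76% in perigonadal fat, beside 11.1% of all genes tested). It was higher in AKO in perigonadal fat with a deposited log2 fold of 0.40, and the chemokine Ccl8 was also higher there (1.22). No gene of 15 erythroid, granulocyte and mast cell markers was listed in either depot. The summed level of the macrophage markers per library was not analysed here, and their part in the 506 perigonadal-only rises was not tested.

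Of 19 adipocyte identity genes, 5 were listed for inguinal fat (26.3%) and 4 for perigonadal fat (21.1%), beside 8.56% and 11.1% of all genes tested. Klf14, a Kruppel-like factor, rose in both depots, with deposited log2 folds of 2.28 and 2.59 in inguinal and perigonadal fat, and Rxra, a nuclear receptor partner of PPARG, fell in both (-0.32 and -0.29). Cebpa (-0.24), Plin1 and Ebf1 (0.70) were listed for inguinal fat only, and Nat8l (-0.70) and Nrg4 for perigonadal fat only, by the deposited log2 folds. Of the 19 genes in a list for inguinal patterning, Hoxc8 alone was listed (5.26% in each depot). It was lower in AKO in both depots (deposited log2 folds -0.58 and -0.88). The deposited mean of Hoxc8 over all libraries was 766 in inguinal fat and 2240 in perigonadal fat, normalized separately. Over the 499 shared genes the perigonadal mean was a median of 2.01 times the inguinal mean. These values do not bear out the place of Hoxc8 in the inguinal list, nor can they test it. Of 13 perigonadal patterning genes, 2 were listed for inguinal fat (15.4%) and 1 for perigonadal fat (7.69%), beside 8.56% and 11.1% of all genes tested. Thbd (0.42) and Lhx8 (0.69) were listed for inguinal fat only and Tbx18 (-0.44) for perigonadal fat only, as deposited log2 folds. Lhx8 stood at 81.6, 155, 97.4 and 156 normalized counts in AKO inguinal fat, against 59.1, 51.3, 69.0 and 92.9 in WT inguinal fat, and these groups overlapped.

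The classes were then followed into female inguinal fat, which came from other mice and where the authors' table listed 5.83% of 13546 genes. Of the inguinal-only genes 106 of 575 (18.4%) were listed in females, of the shared genes 184 of 499 (36.9%), and of the perigonadal-only genes 83 of 989 (8.39%). All 106 and all 184 had the same direction in females as in male inguinal fat. The share of the perigonadal-only genes was near that of all genes tested. Of their 83, 77 had the same direction and 6 the opposite. Among the 77 were Adrb3 (female log2 fold -0.46), Acacb (-0.46), Aacs (-0.96), Plin5 (-0.80), Hp (-0.96), Ehhadh (-0.55), Csf1r (0.50), Krt7 (-1.09) and Tbx18 (-0.64). The shares rose with the size of the male fold in every class. Among genes with an absolute deposited log2 fold of at least 1, 63.3% of 30 inguinal-only genes, 69.4% of 72 shared genes by their inguinal fold and 20.3% of 69 perigonadal-only genes were listed in females. Below 0.5, the shares were 11.2% of 392, 19.4% of 237 and 5.96% of 587. The perigonadal-only genes thus had the lowest share at matched fold size, in these 2 size ranges and between them (28.1%, 46.3% and 10.2%). Sex and depot both separate this table from the male perigonadal one. By definition the perigonadal-only class holds no gene listed for male inguinal fat, unlike the other classes. Its lower share in another inguinal table cannot be told apart from that selection.

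**Figure D5:**
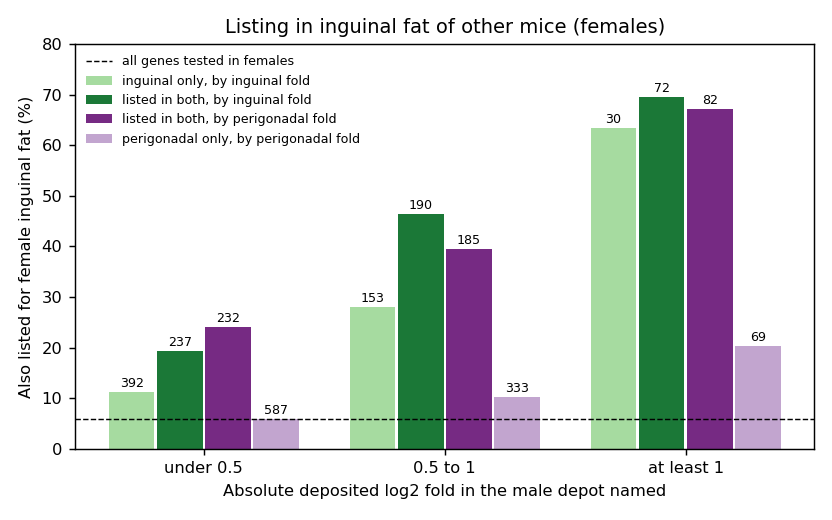
Share of each class listed for female inguinal fat (y axis, percent) by the absolute deposited log2 fold in the males (x axis), with a bar for each class and the number of genes above it. The dashed line is the 5.83% of all genes tested that were listed in females. Perigonadal-only genes have the lowest share in each size range, 20.3% of 69 genes at a log2 fold of at least 1.

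The 6 genes that were listed with opposite directions were all perigonadal-only in males. Basp1, a membrane-bound signalling protein, had a deposited log2 fold of 1.18 ± 0.20 (SE) in male perigonadal fat and -0.37 ± 0.10 in female inguinal fat. In the deposited tables Tmem176a, Emp2 and Nck2 were likewise higher in AKO in male perigonadal fat (0.64, 0.38 and 0.31) and lower in female inguinal fat (-0.53, -0.37 and -0.45). Syp and Sh3glb1 were lower in AKO in male perigonadal fat (-0.44 and -0.28) and higher in female inguinal fat (0.59 and 0.26), by the deposited log2 folds. None of the 6 was listed for male inguinal fat.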

How the data were processed

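The authors' deposited tables hold, per the file headers, a mean normalized count (a signal on the scale of counts), a log2 fold with its error, a p-value, and the p-value after adjustment. The deposited inguinal table of whole-number counts per gene holds the listed genes only. Per the submitters' processing notes, STAR, DESeq2 and mm10 were used. For the read counter, strand setting and annotation, the choice is not stated in the labels or headers. Per the labels' protocols, the library kit was a stranded mRNA kit. The deposited log2 folds are shrunken, with a slope of 0.793 on the plain log2 ratios of inguinal counts.

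Genes were matched by symbol, and 3 perigonadal names that a spreadsheet had turned into dates could not be restored. Size factors were solved from counts and deposited means, with a largest misfit of 4.79e-08%. How many genes the authors tested followed from their p-values before and after adjustment. Depot differences were tested with a Wald test in scipy 1.17.1. Inguinal counts were tested with edgeR 4.0.16 (quasi-likelihood, R 4.3.3), with the size factors as offsets and no filter, and called 366 genes higher and 285 lower in AKO at an adjusted p under 0.05. Both tests were tested on simulated data. Alternatives were other scalings, a filter, DESeq2 1.42.0, a replicate block, other thresholds, undone shrinkage, correlated errors and leaving out each inguinal library. An interaction fitted on counts of both depots was not run, as perigonadal counts were not analysed here.

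Members and gene lists were chosen with earlier results of these data known. Named genes are those with the largest differences past the threshold (mean of at least 50), the gene of opposite direction, the 6 largest rises and falls listed for 1 depot, the 6 largest shared changes and up to 4 members per list. Further list members and Frmd3 were named after their values were seen. Values of some genes are not reported here. Predicted genes (Gm numbers and Rik names) were not named. Positions are from GENCODE M21 (GRCm38), which placed 2046 of 2063 genes.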

Additional observations from a re-analysis of the deposited data

Results flagged for a closer look

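The 11 differences between depots were flagged because the test of inguinal minus perigonadal log2 fold passed its threshold. The difference was 2.39 for Lrrn4 and 1.06 for Igf2 on the positive side. On the negative side it was -2.08 for Ncam1, -1.86 for Acot3, -1.80 for Frmd3, -1.05 for Fam134b, -0.96 for Ogn, -0.83 for Slc38a6, -0.79 for Acot2, -0.63 for Kctd15 and -0.55 for Svep1. Those of Lrrn4, Ncam1, Ogn, Slc38a6 and Igf2 passed under every one of the 14 alternatives, and that of Kctd15 under 13.

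A single library stood apart in 3 of the 144 groups of 4 inguinal libraries examined (2.08%), where chance gives about 1 in 20. Acot3 stood at 8.05 normalized counts in WT replicate 1, against 0, 0 and 1.11 in the other WT libraries. Cspg4 stood at 1099 normalized counts in AKO replicate 1, against 983, 984 and 963 in the other AKO libraries. Slc5a3 stood at 5516 normalized counts in AKO replicate 3, against 3985, 4131 and 4168 in the other AKO libraries.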

How the results depend on the processing

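Class sizes followed the threshold: with an adjusted p under 0.01 required in each depot, 308 genes were shared (307 in the same direction), 363 inguinal only and 594 perigonadal only. With an adjusted p under 0.01 required in the female table alone, 41 of the 989 perigonadal-only genes were listed in females. At a fold of at least 1.5 the counts were 150 shared (149 in the same direction), 169 inguinal only and 370 perigonadal only. With edgeR calls 277 genes were inguinal only. The count of differing genes was 22 (6 positive, 16 negative) with errors correlated at 0.3 between depots, 6 (4 negative) at -0.3 and 7 (5 negative) at an adjusted p under 0.01. With the inguinal fold of the edgeR fit, 6 differences were positive. Leaving out each inguinal library gave 7 to 14 differing genes, 3 to 6 positive and 4 to 9 negative, the fewest without AKO replicate 3 and the most without AKO replicate 4. The difference of Acot3 was reversed to 0.25 with the edgeR fold and to 0.246, 0.280, 0.286, 0.159, 0.213 and, without WT replicate 1, 1.84 with 1 library left out. Mfsd7c passed with the edgeR fold and without each library in turn, but not with shrinkage undone in both depots. The edgeR fold, also with 1 library left out, lacks the shrinkage of the deposited perigonadal fold it was set against. The cause of these changes was not tested.

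The edgeR calls in inguinal fat (366 higher, 285 lower) became 218 to 293 higher and 132 to 270 lower without 1 library. The scaling moved the split: 348 higher and 380 lower with TMM scaling, 257 higher and 485 lower with DESeq2 size factors on the listed genes (a median shift of -0.08), and 531 higher and 464 lower by the DESeq2 test. With the replicate block 431 were higher and 341 lower. Numbers did not pair the inguinal libraries: same-numbered libraries had correlated deviations of 0.26, 0.15, 0.15 and 0.07, and 2 of 4 correlated best with their own number. Pairing depots by animal could not be fitted.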

Other observations

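Further genes were listed for 1 depot, with no test of a difference between depots. Of all genes tested, 8.56% were listed in inguinal and 11.1% in perigonadal fat. The listed shares in these depots were 25% and 20% of 20 insulin signalling genes and 12.5% each of 24 cell cycle genes. For 40 growth factors they were 17.5% and 20%. Of 20 insulin signalling genes, the deposited tables listed Irs2 as higher for inguinal fat only (log2 fold 0.83) and Irs1 as higher for perigonadal fat only (0.48), while Akt1 was higher in both (0.56 and 0.68 in inguinal and perigonadal fat). Irs1 and Irs2 encode the insulin receptor substrates. Of 24 cell cycle genes, Ccnd2 was listed as higher for inguinal fat only (deposited log2 fold 0.90) and Myc for perigonadal fat only (0.82). Of 40 growth factors, Bdnf (1.28) was listed for inguinal fat only and Fgf1 (-0.77) and Vegfb (-0.43) for perigonadal fat only, by the deposited log2 folds. The acute-phase gene Hp was listed as lower for perigonadal fat only (-0.69) and Orm2 as higher for inguinal fat only (1.25), by the deposited log2 folds.

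In liver of other male mice the authors' table listed 3 of the shared genes (Zfp949, Eif4a2 and Cyb5r4), 1 inguinal-only gene (Elovl5) and 4 perigonadal-only genes (among them Hsd17b4 and Plin2).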
